A study of Mus musculus with 20 samples.

Results

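The motile cilia genes described here are 37 listed symbols that encode the beating cilium of airway cells and its regulators. A member is a listed symbol with a row in the deposited count tables. Of the 37 symbols 36 had a row, out of 24062 genes, and Dnah12 had none. The list names genes by function, and it was drawn up with earlier results of these data known. All 36 members passed the filter on low counts.

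The assay was RNA-seq of lung RNA from which ribosomal RNA had been depleted. The mice were adults of 8 to 10 weeks, of both sexes, on a mixed C57/129 strain. The first group carried a knockout of Arg2, the gene of the mitochondrial arginase, and lived for 28 days in hypoxia with 10% oxygen. The second carried the same knockout and lived in room air with 21% oxygen, the third was wild type in hypoxia and the fourth wild type in room air. Each group had 4 samples, and neither the position of the deletion nor the cells that carry it are stated in the labels. Reads came from the whole organ, so fewer ciliated cells and less RNA per ciliated cell cannot be told apart in any value below.

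Motile cilia line the conducting airways and move mucus. Each is built on an axoneme of doublet microtubules around a central pair. Outer and inner dynein arms slide the doublets against each other, radial spokes and the central pair shape the beat, and the nexin link and the ruler proteins hold the repeat. The transcription factors Foxj1 and Rfx2 or Rfx3 switch these genes on in cells committed by Mcidas.

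Counts assigned to genes ranged from 9531270 in sample 3 of wild type room air to 63331530 in sample 3 of knockout room air. Of the counts either in genes or on no annotated feature, sample 3 of wild type room air had the smallest share in genes, 25.4%. The share was up to 64.2% elsewhere. Of all its counts 93.9% named no gene, against 74.4% in sample 2 of wild type hypoxia, the lowest. A count of 0 allows a level of up to 0.0474 to 0.315 CPM (counts scaled to a common library size), counting error only. Arg2 itself had 4.57, 3.22, 5.37 and 3.97 CPM in knockout hypoxia, 4.58, 5.26, 4.88 and 7.78 in knockout room air, 6.33, 11.7, 10.0 and 9.13 in wild type hypoxia and 8.47, 9.15, 11.8 and 7.30 in wild type room air. It was lower in the knockout in hypoxia (log2 fold change -1.13 ± 0.22 SE, edgeR adjusted p = 0.00191) and did not pass in room air (-0.70 ± 0.21, adjusted p = 0.0842), where knockout sample 4 lay within the wild type range. Reads on exons outside a deletion would remain, so the gene tests the labels only weakly.

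Genes of other organs stood out in 5 samples, in which a marker list exceeded 10 times its median over the 16 samples. These were samples 1 and 2 of knockout hypoxia with pancreatic genes, samples 3 and 4 of knockout room air with thymocyte genes and sample 1 of wild type room air with skeletal muscle genes. Sample 4 of wild type hypoxia stood apart as a library, with 19.9% of its counts on the ribosomal RNA precursor Rn45s, where Malat1 led in the other 15 samples with at most 2.4%. Its TMM factor, the scaling used for all CPM here, was 0.798, against 0.969 to 1.05 in the others. Counts of called members are given with and without these samples, and correlations with them only.

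The summed level of the 36 members was lowest in knockout hypoxia. It was 1074, 1095, 1051 and 1087 CPM in knockout hypoxia, 1463, 1389, 1518 and 1326.5 CPM in knockout room air, 1273, 1194, 1386.5 and 1731 CPM in wild type hypoxia and 1630.2, 1570.3, 1606 and 1339 CPM in wild type room air. All 4 knockout hypoxia samples lay below all 12 others, and they also lay closest together, with an SD of 19.2 CPM against 83.9, 237 and 134 CPM in the other groups in the order given. The mean of knockout hypoxia was 0.756 times that of knockout room air and 0.771 times that of wild type hypoxia. Wild type hypoxia stood at 0.909 times wild type room air and knockout room air at 0.927 times wild type room air, with overlapping samples in both pairs. On library totals alone, sample 4 of wild type hypoxia had 1381 CPM, within its group at 1307, 1232 and 1399, and the ratio of knockout hypoxia to wild type hypoxia was 0.801. The total of that sample includes the 19.9% of counts on Rn45s, which lowers the CPM of every other gene in it. Tppp3 alone supplied 218 to 366 CPM in a sample, and the sum without it gave 0.764 and 0.746 times in the first 2 comparisons.

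**Figure D1:**
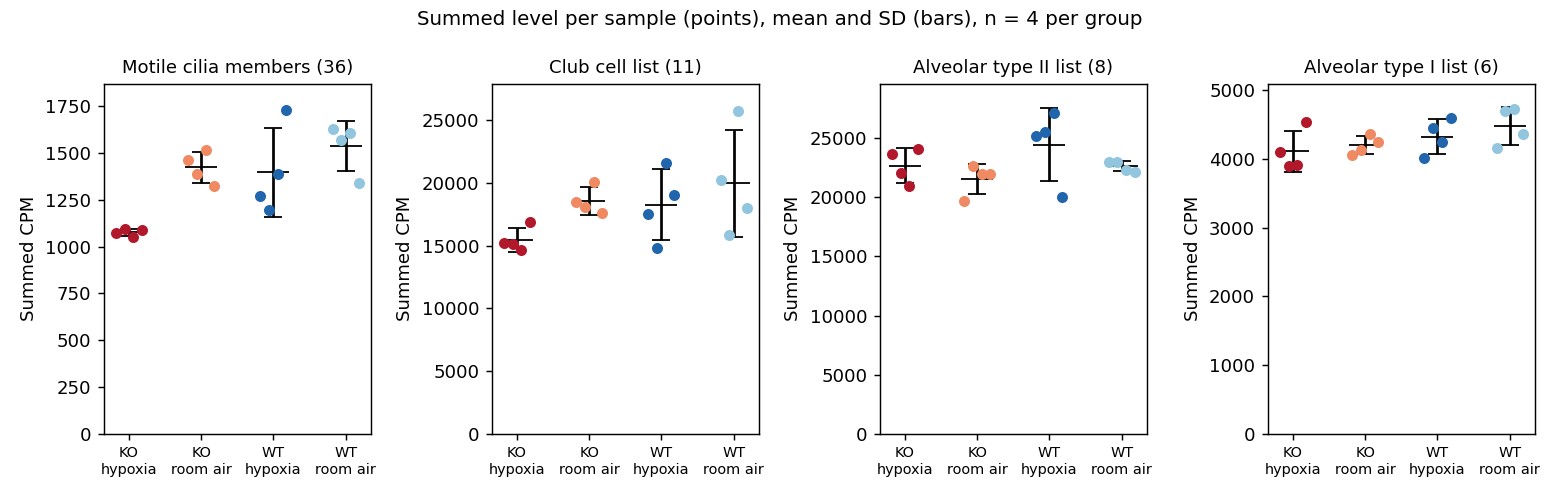
Summed CPM per sample of the motile cilia members and of the club cell, alveolar type II and alveolar type I marker lists, with 4 points per group and the group mean and SD as bars, and axes that start at 0. The 4 knockout hypoxia points of the cilia members, 1051 to 1095 CPM, lie below all other points of that panel. The club cell points of knockout hypoxia, 14665 to 16859 CPM, lie below those of knockout room air, 17577 to 20073 CPM, and overlap both wild type groups. The alveolar lists overlap between groups.

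In knockout lungs 17 of the 36 members were lower in hypoxia than in room air and 0 were higher, by edgeR at an adjusted p under 0.05. Over all 15766 genes tested, 17% were called in this comparison, 9.1% lower and 7.93% higher. On library totals alone 14.2% of all genes were called, with 9.7% of all genes lower, and 22 members passed. The median log2 fold change of the members was -0.46, against 0.00 for all genes tested, and 34 members had a negative value. In 23 members every hypoxia sample lay below every room air sample, which is 63.9% of the members against 11.6% of all genes tested. Against wild type hypoxia, knockout hypoxia had 15 members lower and 0 higher, where 23% of all genes were called, 12.1% lower and 11% higher. The median of the members was -0.38 there, and 33 were negative. In 13 (36.1%, against 12.1% of all genes) every knockout hypoxia sample lay below every wild type hypoxia sample. The knockout hypoxia samples enter both comparisons.

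In wild type lungs 1 member, Tppp3, was lower in hypoxia, where 4.98% of all genes were called, 2.31% lower and 2.67% higher (4.64% called, with 3.13% lower, on library totals alone). The members' median was -0.11. In 1 member (2.78%, against 3.94% of all genes) every hypoxia sample lay below every room air sample. Between genotypes in room air 0 members passed, with 0.0761% of all genes called, 0.019% lower and 0.0571% higher, and 5 had an unadjusted p under 0.05. DESeq2 and limma voom also called 0. Every knockout sample lay below every wild type sample in room air for Hydin, Ccdc40 and Ccdc153, which is 8.33% of the members against 6.06% of all genes. The test of the difference between the hypoxia effects in knockout and wild type passed for 0 members, with 0.501% of all genes called, 0.222% lower and 0.279% higher, and 7 had an unadjusted p under 0.05. DESeq2 and limma voom gave 0 there too. The median difference of the members was -0.33, with 34 of the 36 differences negative.

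Of the members, 11 were called lower in knockout hypoxia against both other groups, namely Armc4, Ccdc153, Ccdc40, Dnah10, Dnah5, Dnah6, Dnah7b, Dnaic2, Spag17, Spag6 and Tekt4. That is 64.7% of the members called against knockout room air and 73.3% of those called against wild type hypoxia. Ak7, Ccdc113, Dnali1, Sntn, Tppp3 and Zmynd10 passed only the first of these tests, and Dnah11, Dnah9, Hydin and Rsph1 only the second. The remaining 15 passed neither. In 10 members all 4 knockout hypoxia samples lay below all 12 other samples. They were Dnah9, Dnaic2, Dnah6, Armc4, Spag6, Spag17, Hydin, Ccdc40, Ccdc113 and Ccdc153, or 27.8% of the members against 4.5% of all genes tested.

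**Figure D2:**
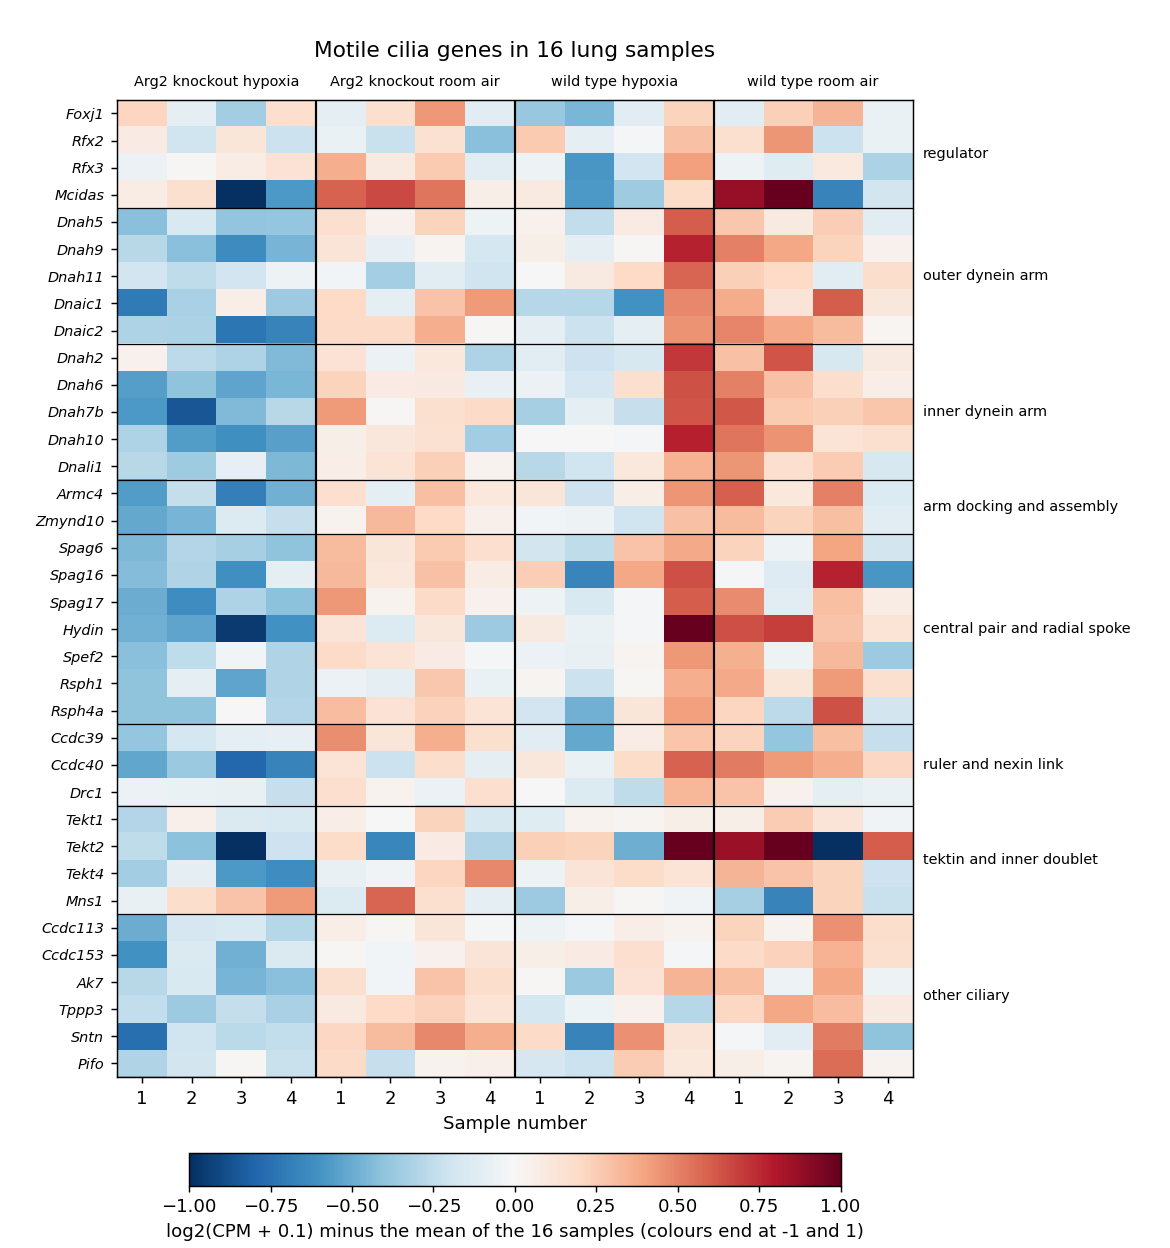
Level of each member (rows, grouped by role) in each of the 16 samples (columns, 4 per group), as log2(CPM + 0.1) minus the mean of the 16 samples, with blue for low and red for high. The 4 knockout hypoxia columns are blue in most rows below the regulators, and sample 4 of wild type hypoxia is red in most rows.

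The regulators did not pass in any comparison. Foxj1, the forkhead factor that drives motile ciliogenesis, had 85.3, 68.6, 57.6 and 82.4 CPM in knockout hypoxia, 68.5, 81.9, 99.4 and 68.0 in knockout room air, 56.4, 53.4, 68.3 and 85.6 in wild type hypoxia and 67.8, 86.5, 93.1 and 69.9 in wild type room air. The 4 groups overlapped. Its log2 fold change was -0.11 ± 0.16 for hypoxia in the knockout (adjusted p = 0.712) and 0.16 ± 0.17 for knockout against wild type in hypoxia (adjusted p = 0.522). Rfx3, an X-box binding factor, ranged from 35.1 to 40.5 CPM in knockout hypoxia, within the 34.0 to 47.1 CPM of knockout room air. Rfx2, of the same family, ranged from 12.4 to 15.8 CPM in knockout hypoxia against 10.8 to 16.1 CPM in knockout room air. Mcidas, which commits cells to many cilia, was at the edge of detection, with 0.43, 0.46, 0 and 0.24 CPM in knockout hypoxia and 0.22 to 1.27 CPM in wild type room air. The sample at 0 had a limit of 0.169 CPM, and no fold change is given for this gene.

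Rfx factors bind the X-box, and many axonemal promoters carry its letters close to the start. Promoter windows of RefSeq on GRCm38.p6, from 250 bases before to 50 bases after a gene's start, were found for 31 of the 36 members. The X-box letters GTTGCC were searched on both strands. They stood in the windows of 20 of these 31 genes (64.5%), against 14.9% of the 11579 tested genes with a window. In the last 50 bases before the start they stood in 9 of the 31 (29%), against 3.12% of tested genes. A longer X-box, GTTNCC followed by 3 bases and GNNAC, which overlaps the first motif where its first N is G, stood in 19.4% of the member genes and in 3.25% of tested genes. The forkhead letters TGTTTAC stood in 6.45% of member genes and 3.22% of tested genes. A match describes letters, not binding.

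The last 100 bases before the start are shown for 5 of these 9 members to set a called promoter beside an uncalled one, with the match in capitals (GTTGCC, or GGCAAC where it lies on the other strand). All 5 lie on the plus strand of GRCm38.p6. Dnah10 (chr5:124724985-124725084), Dnaic2 (chr11:114727319-114727418) and Ccdc113 (chr8:95534000-95534099) were called lower in knockout hypoxia against knockout room air. Hydin (chr8:110266877-110266976) was called lower only against wild type hypoxia, and Drc1 (chr5:30281293-30281392) was not called.
Dnah10: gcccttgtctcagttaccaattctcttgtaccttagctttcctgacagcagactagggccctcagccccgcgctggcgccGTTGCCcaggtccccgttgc
Dnaic2: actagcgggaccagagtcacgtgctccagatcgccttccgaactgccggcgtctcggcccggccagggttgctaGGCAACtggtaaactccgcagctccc
Ccdc113: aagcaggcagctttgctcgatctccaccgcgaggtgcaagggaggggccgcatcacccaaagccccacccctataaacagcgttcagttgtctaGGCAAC
Hydin: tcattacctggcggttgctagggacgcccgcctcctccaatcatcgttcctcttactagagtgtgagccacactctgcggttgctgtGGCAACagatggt
Drc1: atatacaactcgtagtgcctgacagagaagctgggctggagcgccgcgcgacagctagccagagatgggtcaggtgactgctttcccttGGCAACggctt
The first base of the capitals lies 20 bases before the RefSeq start in Dnah10 and 26 in Dnaic2. In Ccdc113 it lies 6 bases before that start, in Hydin 13 and in Drc1 11. A match at this place thus occurred among members that were called and members that were not. GENCODE begins Dnaic2, Ccdc113 and Drc1 within the bases shown, and begins Ccdc113, at 95534085, before its match.

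Among the 5 measured outer dynein arm genes, 2 were lower in knockout hypoxia than in knockout room air and 4 were lower than in wild type hypoxia. Their summed level in knockout hypoxia was 0.779 times that in knockout room air and 0.705 times that in wild type hypoxia. Dnaic2, an intermediate chain (chr11:114727408-114757889 of GRCm38), had 11.3, 11.2, 8.47 and 8.77 CPM in knockout hypoxia, 16.02, 15.98, 18.1 and 14.2 in knockout room air, 13.1, 12.1, 13.2 and 19.2 in wild type hypoxia and 19.7, 18.2, 17.5 and 14.2 in wild type room air. All 4 knockout hypoxia samples lay below the rest. Its log2 fold change was -0.69 ± 0.15 against knockout room air (adjusted p = 0.0035) and -0.53 ± 0.15 against wild type hypoxia (adjusted p = 0.0183). The second call was lost without sample 3 or 4 of knockout hypoxia, without sample 4 of wild type hypoxia and with the GC trend removed.

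Dnah9, an outer arm heavy chain, had 53.8, 48.99, 42.1 and 47.2 CPM in knockout hypoxia, 71.4, 61.7, 66.6 and 57.7 in knockout room air, 67.9, 61.2, 65.8 and 111 in wild type hypoxia and 92.6, 85.3, 76.3 and 67.1 in wild type room air. The knockout hypoxia samples again lay below all others. It fell against wild type hypoxia (-0.67 ± 0.16, adjusted p = 0.0064) and missed the threshold against knockout room air (-0.42 ± 0.16, adjusted p = 0.0717). Dnah11, the paralogous heavy chain, had 51.5, 49.4, 51.6 and 56.7 CPM in knockout hypoxia, 57.8, 46.4, 54.5 and 51.3 in knockout room air, 58.7, 62.4, 67.4 and 88.1 in wild type hypoxia and 69.5, 67.4, 54.3 and 66.3 in wild type room air. The 2 knockout groups overlapped (-0.01 ± 0.11, adjusted p = 0.98), while knockout hypoxia lay below wild type hypoxia in every sample (-0.40 ± 0.11, adjusted p = 0.0165), a call lost without sample 4 of wild type hypoxia and without the samples with genes of other organs. In room air the genotypes differed by -0.30 ± 0.11, which did not pass (adjusted p = 0.139).

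Dnah5, the other measured heavy chain of this arm, ranged from 116 to 139.7 CPM in knockout hypoxia against 149 to 181 CPM in knockout room air and 131 to 236 CPM in wild type hypoxia, which it overlapped. It passed both tests (-0.43 ± 0.14, adjusted p = 0.0364, and -0.49 ± 0.14, adjusted p = 0.0173). The first call was lost under 8 of 28 alternative settings and the second under 3, namely without sample 4 of knockout hypoxia, without sample 4 of wild type hypoxia and without the samples with genes of other organs. Dnaic1, the second intermediate chain, had a log2 fold change of -0.54 ± 0.21 against knockout room air and did not pass (adjusted p = 0.0894).

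The inner dynein arm genes had 4 of 5 members lower against knockout room air and 3 lower against wild type hypoxia, with summed levels at 0.697 and 0.655 times. Dnah6, a single-headed heavy chain (chr6:73017606-73221651), had 80.0, 88.6, 81.2 and 85.5 CPM in knockout hypoxia, 137, 124, 125 and 111 in knockout room air, 112, 104, 131 and 183 in wild type hypoxia and 167, 144, 133 and 123 in wild type room air. The gap between knockout hypoxia and the lowest other sample was 88.6 against 104 CPM. Its log2 fold changes were -0.57 ± 0.14 (adjusted p = 0.00709) and -0.66 ± 0.14 (adjusted p = 0.0032). The first call was lost only without the samples with genes of other organs, and the second held under all 28 alternative settings.

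Dnah10, a heavy chain of the paired inner arm, had 33.5, 28.1, 27.2 and 28.5 CPM in knockout hypoxia, 43.3, 45.0, 46.1 and 32.7 in knockout room air, 41.5, 41.7, 41.0 and 71.5 in wild type hypoxia and 60.3, 56.9, 45.8 and 46.5 in wild type room air. One knockout room air sample overlapped knockout hypoxia, and wild type hypoxia did not. Dnah10 was lower against wild type hypoxia (-0.74 ± 0.17, adjusted p = 0.00529) under all 28 alternative settings, and against knockout room air (-0.51 ± 0.17, adjusted p = 0.0414) with the call lost under 9. Dnah7b, another single-headed chain, had 9.05, 7.39, 9.89 and 11.1 CPM in knockout hypoxia, 18.1, 13.6, 15.1 and 15.5 in knockout room air, 10.7, 12.6, 11.5 and 20.9 in wild type hypoxia and 20.8, 16.2, 15.9 and 16.4 in wild type room air. It fell by 0.73 ± 0.18 on the log2 scale against knockout room air (adjusted p = 0.0087) and by 0.58 ± 0.18 against wild type hypoxia (adjusted p = 0.0304), the second call being lost under 6 of 28 alternative settings. Its first call was lost only without the samples with genes of other organs. The knockout hypoxia samples lay below those of knockout room air and overlapped wild type hypoxia. Its sequence is close to those of Dnah7a and Dnah7c, so reads may have been split between them, and its value is uncertain. Dnah7a, which is no member, had -1.07 ± 0.16 against knockout room air (adjusted p = 0.000128).

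Dnali1, an inner arm light chain, ranged from 14.3 to 18.4 CPM in knockout hypoxia against 20.0 to 23.0 CPM in knockout room air. It passed narrowly (-0.41 ± 0.14, adjusted p = 0.0485), and the call was lost under 15 of 28 alternative settings. Dnah2, a further inner arm heavy chain, did not pass in any comparison.

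Both genes of arm docking and assembly were lower in knockout hypoxia than in knockout room air, with a summed level of 0.684 times. Armc4, a docking factor of the outer arm, ranged from 5.42 to 7.43 CPM in knockout hypoxia, 8.18 to 10.8 in knockout room air, 7.56 to 11.96 in wild type hypoxia and 7.98 to 13.4 in wild type room air. It passed against knockout room air (-0.62 ± 0.17, adjusted p = 0.0173) and against wild type hypoxia (-0.61 ± 0.17, adjusted p = 0.0184), the first call being lost without sample 3 of knockout hypoxia or of knockout room air and the second without sample 3 of knockout hypoxia or sample 4 of wild type hypoxia. Both were lost without the samples with genes of other organs. Zmynd10, which helps to assemble dynein arms in the cytoplasm, ranged from 6.38 to 8.30 CPM in knockout hypoxia against 9.38 to 11.5 CPM in knockout room air (-0.49 ± 0.14, adjusted p = 0.0194), a call lost under 5 of 28 alternative settings.

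Of 7 central pair and radial spoke genes, 2 were lower against knockout room air and 4 against wild type hypoxia. All 7 fold changes were negative in both, and the summed level was 0.696 and 0.668 times. Hydin, a giant protein of the central pair (chr8:110266977-110610253), had 34.0, 32.9, 24.4 and 31.3 CPM in knockout hypoxia, 52.0, 43.3, 51.5 and 36.97 in knockout room air, 50.5, 45.5, 46.9 and 99.3 in wild type hypoxia and 74.3, 77.0, 57.9 and 52.2 in wild type room air. No other sample was as low as the knockout hypoxia samples, and sample 4 of wild type hypoxia was the highest of all. Against wild type hypoxia Hydin had -0.98 ± 0.23 (adjusted p = 0.00773), a call that held without that sample. Against knockout room air it did not pass (-0.59 ± 0.23, adjusted p = 0.0908).

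Spag17, needed for the central pair, had 15.2, 13.9, 17.3 and 16.1 CPM in knockout hypoxia, 29.0, 22.0, 24.5 and 22.1 in knockout room air, 20.7, 19.3, 21.3 and 32.7 in wild type hypoxia and 29.8, 19.9, 26.4 and 22.6 in wild type room air. Knockout hypoxia stood below every other sample (-0.65 ± 0.16, adjusted p = 0.0076, against knockout room air, and -0.59 ± 0.16, adjusted p = 0.0134, against wild type hypoxia). Both calls were lost without the samples with genes of other organs, and the second also without sample 4 of wild type hypoxia. Spag6, another central pair gene, had 14.2, 15.9, 15.4 and 14.7 CPM in knockout hypoxia, 24.3, 21.2, 23.3 and 21.9 in knockout room air, 17.1, 16.3, 23.7 and 25.3 in wild type hypoxia and 22.8, 18.8, 25.6 and 17.1 in wild type room air. It passed both tests (-0.59 ± 0.14, adjusted p = 0.00601, and -0.46 ± 0.14, adjusted p = 0.0265), the second being lost under 6 of 28 alternative settings, each of which left out samples. The first was lost only without the samples with genes of other organs. The reference holds Spag6 and Spag6l, which once shared this symbol, so the locus behind the row is uncertain.

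Spag6, Sntn and Spag17 had the 3 smallest p-values among the members for the difference between the hypoxia effects. The differences, knockout minus wild type, were -0.58 ± 0.20 for Spag6 (adjusted p = 0.182), -0.58 ± 0.22 for Spag17 (adjusted p = 0.236) and -0.77 ± 0.29 for Sntn (adjusted p = 0.24). None passed. Spag16 and Spef2 of the central pair and the spoke head gene Rsph4a passed no test. Rsph1, also a spoke head gene, ranged from 11.4 to 15.5 CPM in knockout hypoxia against 14.1 to 21.2 CPM in wild type hypoxia (-0.38 ± 0.13, adjusted p = 0.0432), a call lost under 15 of 28 alternative settings.

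Ccdc40, which with Ccdc39 forms the ruler of the axonemal repeat, was 1 of the 2 members, with Dnaic2, that kept the call against knockout room air under all 28 alternative settings. It had 19.3, 21.5, 16.04 and 17.5 CPM in knockout hypoxia, 30.6, 23.9, 31.3 and 25.9 in knockout room air, 30.1, 26.5, 31.6 and 41.9 in wild type hypoxia and 39.9, 37.3, 35.7 and 32.0 in wild type room air. Knockout hypoxia lay below all else, and knockout room air lay below wild type room air in every sample. The log2 fold change was -0.59 ± 0.13 against knockout room air (adjusted p = 0.00409) and -0.81 ± 0.13 against wild type hypoxia (adjusted p = 0.000648). In room air the genotypes differed by -0.37 ± 0.13, which did not pass (adjusted p = 0.117).

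Its partner Ccdc39 missed the threshold against knockout room air (-0.47 ± 0.16, adjusted p = 0.0518) although the samples did not overlap, with 22.4 to 27.6 CPM in knockout hypoxia against 31.9 to 40.3 CPM. Of its exon bases 34.22% are shared with Ttc14 on the other strand, and the strand setting of the counting is not given, so Ccdc39 is uncertain. Drc1, of the nexin link, ranged from 14.8 to 16.6 CPM in knockout hypoxia and 16.7 to 19.5 CPM in knockout room air and did not pass (-0.19 ± 0.12, adjusted p = 0.321).

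**Figure D3:**
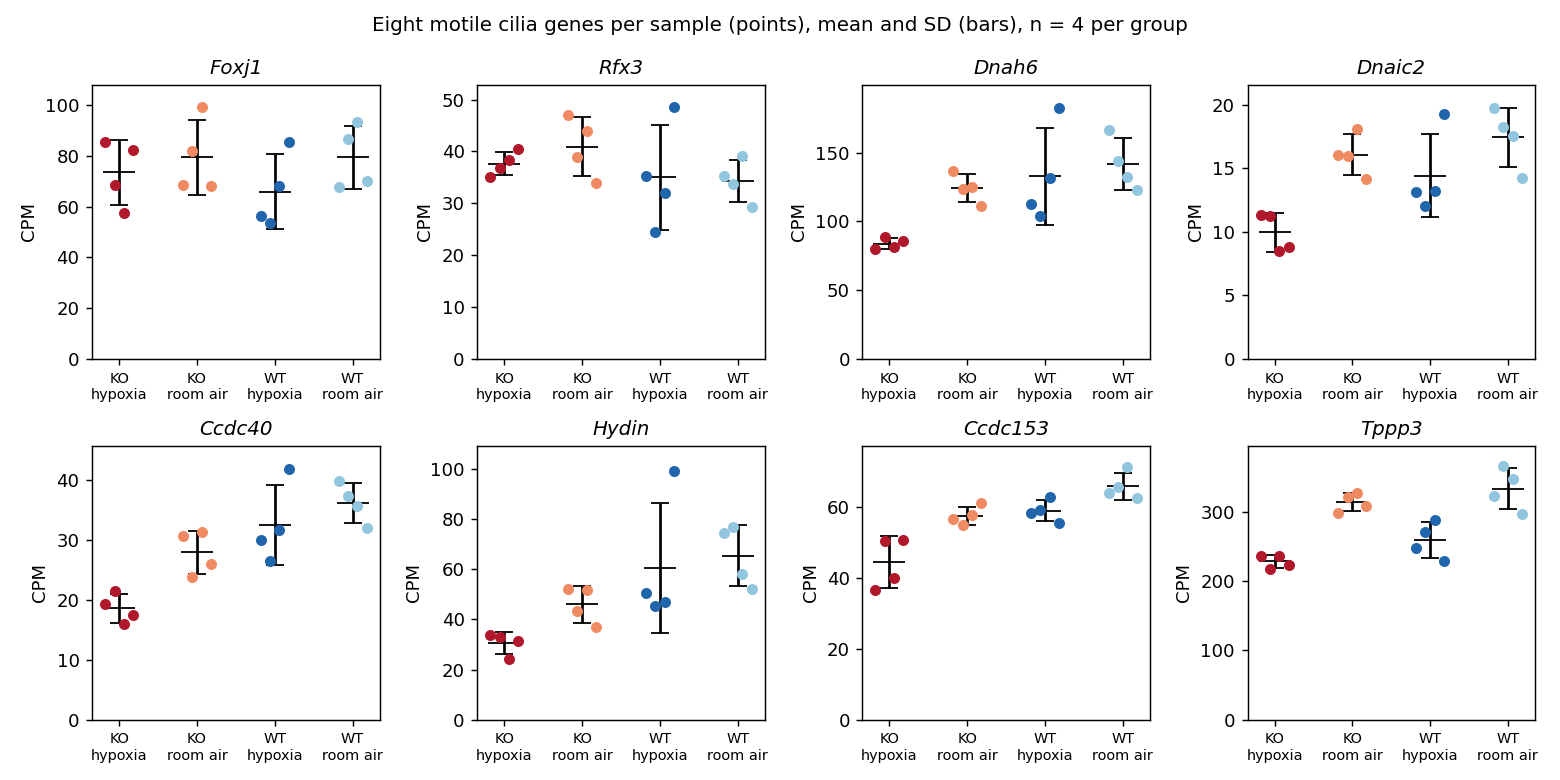
CPM per sample of 8 members, with 4 points per group, the group mean and SD as bars and axes that start at 0. Foxj1 and Rfx3 overlap between all groups, the knockout hypoxia samples of Dnah6, Dnaic2, Ccdc40, Hydin and Ccdc153 lie below all others, and both hypoxia groups of Tppp3 lie below both room air groups.

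Of the 4 tektins and inner doublet genes 1 was lower in each of the same comparisons, and their summed levels were 0.876 and 0.914 times, nearer to 1 than those of the other axonemal groups. Tekt4, a filament protein of the doublet wall, ranged from 6.03 to 8.73 CPM in knockout hypoxia against 8.85 to 13.0 CPM in knockout room air and 8.98 to 10.6 CPM in wild type hypoxia. It passed both tests (-0.56 ± 0.16, adjusted p = 0.0169, and -0.50 ± 0.16, adjusted p = 0.028), the calls being lost under 4 and 7 of 28 alternative settings. Tekt1 ranged from 12.7 to 16.1 CPM in knockout hypoxia and 14.0 to 18.2 CPM in knockout room air. Tekt2 was low and uneven, from 0.75 to 5.86 CPM within wild type room air alone, and shares 25.68% of its exon bases with Gm12945. Mns1, an inner doublet protein, ranged from 10.7 to 15.3 CPM in knockout hypoxia against 10.3 to 17.0 CPM in knockout room air, and shares 54.13% of its exon bases with Tex9 on the other strand.

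Of the 6 other ciliary genes 5 were lower against knockout room air and 1 against wild type hypoxia. Tppp3, which promotes tubulin polymerisation, had the highest level per length of all members, 153.5 CPM per kb of exon, followed by Ccdc153 with 44.6 and Foxj1 with 28.4, against 0.199 for Mcidas. It had 236, 218, 237 and 223 CPM in knockout hypoxia, 298, 321, 328 and 308 in knockout room air, 248, 271, 289 and 229 in wild type hypoxia and 323, 366, 348 and 297 in wild type room air. Hypoxia samples lay below room air samples in both genotypes, by -0.46 ± 0.08 on the log2 scale in the knockout (adjusted p = 0.000667) and -0.36 ± 0.08 in wild type (adjusted p = 0.0117). The genotypes overlapped in hypoxia (-0.18 ± 0.08, adjusted p = 0.114). The wild type call was lost without sample 1 of wild type hypoxia, in a fit on the compared groups only, and without the samples with genes of other organs. The knockout call was lost in the last of these settings only.

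Ccdc153, a coiled-coil gene, had 36.7, 50.6, 40.1 and 50.8 CPM in knockout hypoxia, 56.6, 54.9, 57.7 and 61.1 in knockout room air, 58.3, 59.3, 62.9 and 55.7 in wild type hypoxia and 64.0, 65.7, 71.3 and 62.7 in wild type room air. It was lower in knockout hypoxia against both other groups (-0.37 ± 0.09, adjusted p = 0.0104, and -0.41 ± 0.09, adjusted p = 0.00626). Only the setting without the samples with genes of other organs lost the first call, and none lost the second. Sample 4 of wild type hypoxia was here the lowest of its group. Sntn, which encodes sentan of the ciliary tip, had 8.13, 11.98, 11.4 and 11.6 CPM in knockout hypoxia, 15.9, 17.1, 19.2 and 17.7 in knockout room air, 15.7, 8.60, 18.9 and 15.01 in wild type hypoxia and 13.6, 12.8, 19.8 and 10.4 in wild type room air. It was lower in knockout hypoxia than in knockout room air (-0.70 ± 0.21, adjusted p = 0.0252), with wild type groups spread over both, and the call was lost under 3 of 28 alternative settings. Ak7, an adenylate kinase (-0.48 ± 0.14, adjusted p = 0.0188), and Ccdc113 (-0.32 ± 0.11, adjusted p = 0.0457) were also lower, the first with its call lost under 4 and the second with its call lost under 17 of 28 alternative settings. Pifo, a ciliary gene, did not pass.

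The genes with the smallest p-values between genotypes in room air were Ccdc40, Dnah11 and Hydin. Hydin had 36.97 to 52.0 CPM in knockout room air against 52.2 to 77.0 CPM in wild type room air (-0.51 ± 0.22, adjusted p = 0.204). Without sample 3 of wild type room air, the sample with the smallest share of reads in genes, 3 members passed, Dnah11 and Tekt2 lower and Mns1 higher in the knockout. That is 8.33% of the members, where 13.8% of all genes tested were called without that sample.

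Sample 4 of wild type hypoxia was the highest of its group in 29 of the 36 members (80.6%, against 30.5% of all genes tested) and the highest of all 16 samples in 13. On library totals alone, which hold its Rn45s counts, it was the highest of its group in 15 members (41.7%, against 6.41% of all genes). It was then the highest of all 16 samples in 1. The median log2 ratio to the mean of the other 3 samples was 0.78 in the 8 members with at least 10000 exon bases and 0.45 in the other 28 (0.42 and 0.09 on library totals alone), and the highest single ratio was that of the short gene Tekt2, 1.27. Tppp3 and Ccdc153 were lowest in this sample instead. Without it, knockout against wild type in hypoxia called 6 members in place of 15, namely Ccdc40, Dnah6, Hydin, Ccdc153, Dnah10 and Dnah9, all of them among the 15, and the median log2 fold change was -0.26. The 6 are 16.7% of the members, where 17.7% of all genes were then called and 9.01% called lower. Hypoxia in wild type then called 3 members, Dnah7b, Tppp3 and Dnaic1, with a median of -0.27 (5.77% of all genes called), and the median difference between the effects was -0.16.

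**Figure D4:**
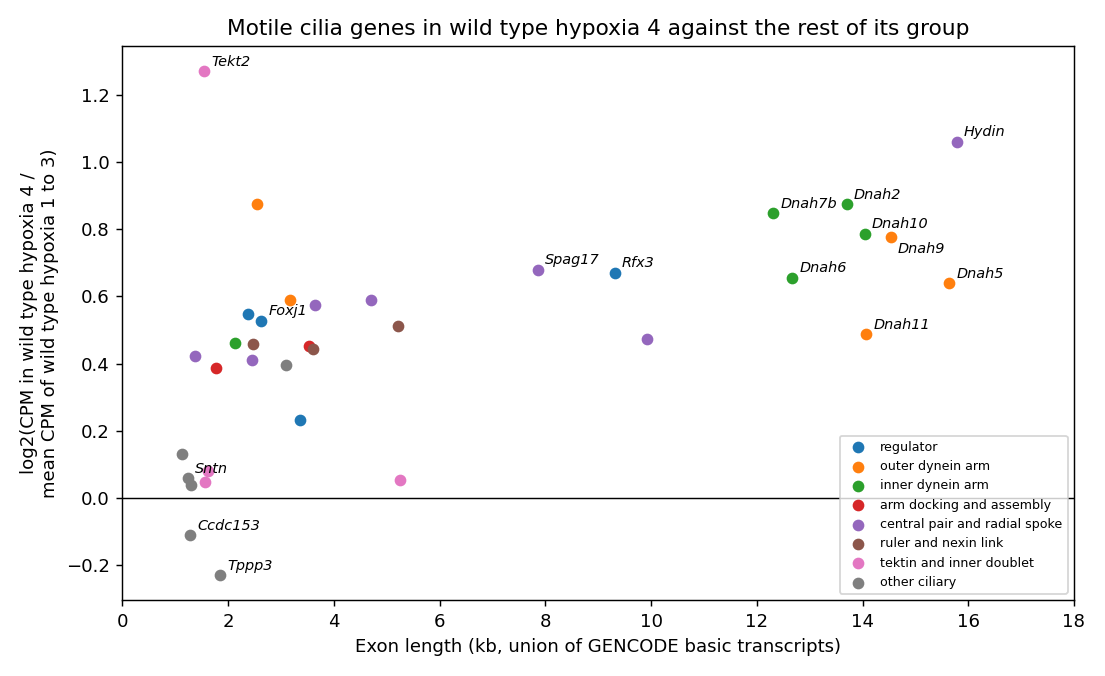
Log2 ratio of the CPM in sample 4 of wild type hypoxia to the mean CPM of samples 1 to 3 of its group (y axis) against exon length in kb (x axis), 1 point per member, coloured by role. The 8 members of at least 10 kb lie above 0, with Hydin at 1.06, Tekt2 at 1.27 is the highest point, and Tppp3 lies lowest at -0.23.

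Length went with the genotype comparison as well, but the 8 long members are dynein heavy chains and Hydin. Length and role thus cannot be told apart among the members. The hypoxia values include sample 4 of wild type hypoxia. The 8 long members had a median log2 fold change of -0.62 for knockout against wild type in hypoxia and the 28 shorter members -0.33, and in room air the medians were -0.28 and -0.05. The 460 other long genes tested had -0.09 in hypoxia and -0.11 in room air. For hypoxia in the knockout the long and shorter members were alike, at -0.47 and -0.46. With the trend of each sample on exon length removed, 17 members were called between genotypes in hypoxia, including all 15 (24.9% of all genes called), and 18 for hypoxia in the knockout (18% of all genes called).

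Of the 8 samples in the hypoxia comparison in the knockout, 4 are among the samples with genes of other organs. Leaving these out keeps only samples 3 and 4 of knockout hypoxia and samples 1 and 2 of knockout room air in that comparison. Without the 5 samples named above, 2 members were called there, Dnaic2 and Ccdc40, against 8 between genotypes in hypoxia and 0 in wild type. These are 5.56% of the members, where 6.48% of all genes were called and 3.99% called lower, and 22.2%, where 12.7% were called and 7.35% called lower. The median log2 fold change of the members was then -0.43, with 33 of 36 negative. The parts of the smaller groups and of the other organs' tissue in these values were not tested.

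Within groups most members varied together from sample to sample. After group means were taken off log2 CPM, the median Pearson r over 630 pairs of members was 0.40 and the mean 0.35, against a mean of 0.00 for other tested genes. The 16 samples share depth and scaling across genes, and these r are a description. Sample 4 of wild type hypoxia lay farthest from its group mean. The members deviated there by 0.364 on average on the log2 scale, against -0.236 to 0.138 in the other samples. No r was computed without that sample, here or for genes outside the list. Dnah5 had r = 0.96 with the mean of the other members, Dnah6 0.93 and Dnah9 0.92, and 24 members were above 0.5. Foxj1 stood at 0.58 and Rfx3 at 0.85. Ccdc153 (0.00), Mns1 (-0.10) and Tppp3 (-0.27) had no positive r with the rest. Of these, Ccdc153 and Tppp3 were lowest of their group in sample 4 of wild type hypoxia.

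Outside the list, the tested genes that varied most like the members' mean within groups, with group means taken off over the same 16 samples, included Ptprz1 (r = 0.92), Ccdc146 (0.92), Ttc29 (0.91), Bmpr1b (0.91), Ccdc108 (0.89) and Cyp2f2 (0.87). Ccdc146 was lower in knockout hypoxia against both other groups (-1.20, adjusted p = 1.31e-05, and -1.01, adjusted p = 0.000204). Ptprz1 was not (0.05 and 0.26, adjusted p = 0.89 and 0.323), since likeness within groups takes no account of differences between them.

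Summed over the members, A and B libraries of the same number had 1373 and 1407 CPM in knockout room air 2, 1334 and 1292 in knockout room air 4, 1565 and 1593 in wild type room air 2 and 1590.1 and 1618 in wild type room air 3. The sums of a number differed by less than the SD between samples of either room air group. For single members the median absolute log2 difference between A and B was 0.098, 0.214, 0.143 and 0.232 in these numbers, against 0.126, 0.155, 0.12 and 0.19 for all genes over 1 CPM.

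Of 91 further genes of the pathway tested, 23 were lower in knockout hypoxia than in knockout room air (25.3%) and 0 higher. Over all genes 9.1% were lower there and 7.93% higher. Against wild type hypoxia 24 were lower (26.4%) and 2 higher, where 12.1% of all genes were lower and 11% higher. For hypoxia in wild type and between genotypes in room air 0 passed, with 4.98% and 0.0761% of all genes called. Among the 45 further axonemal genes the counts were 13 lower (28.9%), and 15 lower (33.3%) with 2 higher, with medians of -0.35 and -0.37. Ttc25, a docking factor of the outer arm, ranged from 5.13 to 7.06 CPM in knockout hypoxia, against 9.87 to 11.3 CPM in knockout room air (-0.87 ± 0.14, adjusted p = 0.000318). Of 26 genes of intraflagellar transport, which primary and motile cilia share, 6 were lower against knockout room air (23.1%), with a median of -0.14. Against wild type hypoxia 4 were lower (15.4%, near the 12.1% of all genes), with a median of -0.11. In the group of multiciliation regulators and basal body amplification 3 of 12 (25%) were lower in both comparisons. They were Myb (-0.91 ± 0.21, adjusted p = 0.00501), a factor upstream of Foxj1, Ccdc78 (-0.62 ± 0.12, adjusted p = 0.0019) and Ccdc67, now Deup1 (-1.07 ± 0.25, adjusted p = 0.00642), which acts in centriole amplification. The values are those against knockout room air.

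Markers of other airway and lung cells were read beside the members. Over all genes, 9.1% were called lower in knockout hypoxia against knockout room air and 12.1% against wild type hypoxia. Of 11 club cell genes 3 were lower in knockout hypoxia than in knockout room air, Lypd2, Cyp2f2 and Bpifa1, and against wild type hypoxia 5 were lower and 1 higher. The summed club cell level ranged from 14665 to 16859 CPM in knockout hypoxia, 17577 to 20073 in knockout room air, 14836 to 21595 in wild type hypoxia and 15860.0 to 25770.0 in wild type room air. The ratio of knockout hypoxia was 0.833 to knockout room air and 0.847 to wild type hypoxia. Cyp2f2, a club cell monooxygenase, ranged from 1097 to 1370.0 CPM in knockout hypoxia against 1916 to 2239 CPM in knockout room air (-0.73 ± 0.14, adjusted p = 0.00142), while Scgb1a1, the main club cell secretoglobin, did not pass (-0.19 ± 0.14, adjusted p = 0.414). The 3 basal cell genes that passed the filter were all lower against knockout room air, with a summed level of the 8 listed of 0.56 to 1.29 CPM in knockout hypoxia and 1.72 to 6.19 CPM in knockout room air. The defining basal cell marker Krt5 was at or near 0, at most 0.44 CPM, and the cartilage markers Acan and Col2a1 did not exceed 2.12 CPM. The 8 cartilage genes together had 7.005 to 13.6 CPM in knockout hypoxia, 11.4 to 18.7 in knockout room air, 11.5 to 24.2 in wild type hypoxia and 10.2 to 22.9 in wild type room air. Of these Chad was lower in knockout hypoxia than in wild type hypoxia (-1.37 ± 0.32, adjusted p = 0.00782) and Hapln1 was higher in hypoxia in the knockout (1.68 ± 0.38, adjusted p = 0.00416) and in wild type (1.82 ± 0.43, adjusted p = 0.0164).

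Alveolar type II markers had 0 of 8 called for hypoxia in the knockout, with a summed ratio of 1.05, and 4 lower against wild type hypoxia. Alveolar type I markers had 0 and 1 of 6 lower, with summed ratios of 0.978 and 0.951. The pan-epithelial list had 1 and 4 of 9 lower, with summed ratios of 0.927 and 0.814. Its sum was 684 to 800 CPM in knockout hypoxia and 862 to 1054 in wild type hypoxia. In room air it was 766 to 830 CPM in the knockout and 865 to 1068 in wild type, a ratio of 0.837. Goblet cell genes had 0 and 1 of 5 lower, with summed ratios of 0.785 and 0.716. Heart muscle genes had 4 of 5 lower against knockout room air, with a summed level of 91.5 to 215 CPM in knockout hypoxia and 238 to 717 CPM in knockout room air. The part of airway content in the values of the motile cilia members was not tested.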

How the data were processed

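RNA-seq counts of 20 lung libraries in 4 groups were used. Per the submitters' processing notes, Trim Galore, TopHat2, HTSeq and the build mm10 were used, with neither versions nor the strand setting given. The authors deposited unnormalised counts, 1 value per gene symbol and library. Lines that name no gene, between 74.4% and 93.9% of all counts, stayed out. A and B libraries of a number were summed, giving 16 samples, 4 per group. The labels do not say that numbers are separate animals, and p-values cover only the variation among these samples, which may be technical.

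In R 4.3.3 with edgeR 4.0.16, filterByExpr (minimum count 10, minimum total 15) kept 15766 genes and removed 8296. TMM scaling and a single robust quasi-likelihood fit over the 4 groups were used, with two-sided tests and Benjamini-Hochberg adjustment over all genes tested, and a gene is called at an adjusted p under 0.05. The fit was tested on simulated data. CPM use TMM-scaled library sizes, and log2 CPM a prior count of 2. Standard errors come from the estimate and its F statistic. Alternatives used DESeq2 1.42.0 and limma 3.58.1. Coordinates and exon lengths are from GENCODE vM21 on GRCm38.

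The members and lists were chosen with earlier results of these data known. Genes named with full values are Foxj1, up to 8 called members per comparison with the smallest p, 3 where none was called, and the extremes of level per length. Other lists name up to 3 called genes each. Replicate numbers were not used as pairs.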

Additional observations from a re-analysis of the deposited data

Results flagged for a closer look

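In groups of 4 samples, 13 of 148 combinations held a sample set far from the other 3 by Dixon's criterion, where chance gives about 1 in 20. The 148 are 36 members and their summed level in 4 groups, and all 13 concern members. Sample 4 of wild type hypoxia accounted for 7 of them. It had 111 CPM of Dnah9 (the other 3 at 61.2 to 67.9), 19.2 of Dnaic2 (12.1 to 13.2), 26.9 of Dnah2 (14.1 to 15.1), 71.5 of Dnah10 (41.0 to 41.7), 32.7 of Spag17 (19.3 to 21.3), 99.3 of Hydin (45.5 to 50.5) and 18.2 of Spef2 (12.8 to 13.7).

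The other 6 were spread over 6 samples. Dnah5 stood at 139.7 CPM in knockout hypoxia 2 (others 116 to 119), Drc1 at 14.8 in knockout hypoxia 4 (16.5 to 16.6) and Sntn at 8.13 in knockout hypoxia 1 (11.4 to 11.98). Rsph1 stood at 19.8 CPM in knockout room air 3 (15.4 to 15.73), Dnah7b at 20.8 in wild type room air 1 (15.9 to 16.4) and Pifo at 16.1 in wild type room air 3 (11.2 to 11.4).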

How the results depend on the processing

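No called direction was reversed under the alternatives run, 28 for the comparisons between groups, 27 for the difference of the effects and 12 for each ratio of summed levels. For hypoxia in the knockout, 2 members were called without the samples with genes of other organs (3.99% of all genes called lower). Leaving out each sample in turn gave 9 to 21. The 9 were without knockout room air 3 (7.56% of all genes called lower) and the 21 without wild type hypoxia 4 (9.7%). The next lowest count was 11, without knockout hypoxia 4. A fit on the compared groups only gave 25, where 22.4% of all genes were called. For hypoxia in wild type the count was 0 in a fit on the compared groups only (2.6% of all genes called). It was also 0 without the samples with genes of other organs (2.99%). On leaving out each sample it was 0 to 3, with 3 without wild type hypoxia 4 (5.77%). Between genotypes in hypoxia it was 8 without the samples with genes of other organs (12.7% of all genes called). On leaving out each sample it was 6 to 18, with 9 without knockout hypoxia 3 (14.9%). The 6 were without wild type hypoxia 4 (17.7%) and the 18 without wild type room air 3 (27.3%). Between genotypes in room air it was 0 to 3 on leaving out each sample, with 3 without wild type room air 3 (13.8% of all genes called). The difference of the effects gave 0 throughout. The cause of these shifts was not tested. The median log2 fold change of the members for hypoxia in the knockout stayed between -0.52 and -0.43.

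The labels state no pairing by number. Deviations of same-numbered samples correlated at -0.33 to 0.46, and in 0 of 6 pairs of groups were all 4 correlations over 0.1. In 19 of 48 combinations of a sample and another group its best correlate had its own number, so a pairing was not settled and not used. With the number as a replicate block, 16, 1, 14, 0 and 0 members were called in the order of the comparisons hypoxia in the knockout, hypoxia in wild type, genotypes in hypoxia, genotypes in room air and the difference. Of all genes 17.2%, 5.22%, 24.2%, 1.51% and 0.996% were called in the same order. Leaving out the samples with genes of other organs, the GC and exon length corrections and the scaling by library totals alone were chosen after seeing the data. Mcidas, at or under 3 counts in 2 samples, is limited by depth.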
